A study of Mus musculus with 2 samples.

Results

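C1q macrophages without Arg1 were taken from 2 single-cell RNA-seq libraries of mouse pancreatic tumours by a rule on raw counts of unique molecular identifiers (UMIs, each standing for 1 captured RNA molecule). A barcode was a member when it held 500 or more genes, with mitochondrial UMIs at 15% or less, at least 5 UMIs of C1qa, C1qb and C1qc together and at most 1 UMI of Arg1. It could hold at most 1 UMI of the T cell genes Cd3d, Cd3e, Cd3g and Trac, and at most 5 UMIs of the keratins Krt8, Krt18 and Krt19. There were 218 members among 22472 kept barcodes, 86 of 11664 control and 132 of 10808 knockout barcodes. The control library came from Porcnfl/fl mice and the knockout library from Csf1r-Cre;Porcnfl/fl littermates, so the floxed allele was shared and Cre was not. Csf1r-Cre acts in cells that use the Csf1r promoter, which include macrophages, monocytes and other myeloid cells. All mice carried orthotopic KPC tumours, which are grown from mouse pancreatic cancer cells placed in the pancreas, and tumours were taken at day 21. Tumours of 5 mice were pooled into 1 library per genotype. No difference given here has a replicate check, and all intervals are 95% intervals that cover counting error only.

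C1q is the complement protein that binds antibody complexes and dying cells, and tissue macrophages are its main source. Arg1 encodes arginase 1, which breaks down arginine and marks a macrophage state known from hypoxic and tumour tissue. Tumour macrophages arise from blood monocytes and from macrophages resident in the tissue. They clear dead cells, present antigen on MHC class II and release chemokines that draw T cells. Porcn encodes the acyltransferase that lipidates Wnt proteins for secretion.

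The steps of the rule left the members as follows. At least 5 C1q UMIs were found in 295 control and 311 knockout barcodes. The keratin limit then removed 58 and 47 barcodes, and the T cell limit removed 1 and 9. Of the 236 control barcodes left, 150 had at least 2 Arg1 UMIs, against 124 of 256 in the knockout library. These Arg1 barcodes of the same rule serve below as the comparison population. The median member held 25.5 C1q UMIs in control (5 to 217) and 39 in knockout tumours (5 to 305). Most members lay away from the Arg1 limit, since 74 of 86 and 116 of 132 had no Arg1 UMI. Just inside it, 12 control and 16 knockout members had 1 Arg1 UMI. Just outside, 5 and 12 barcodes had 2. At the C1q limit, 4 control and 3 knockout members had 5 UMIs, and 11 and 6 barcodes had 4.

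**Figure D1:**
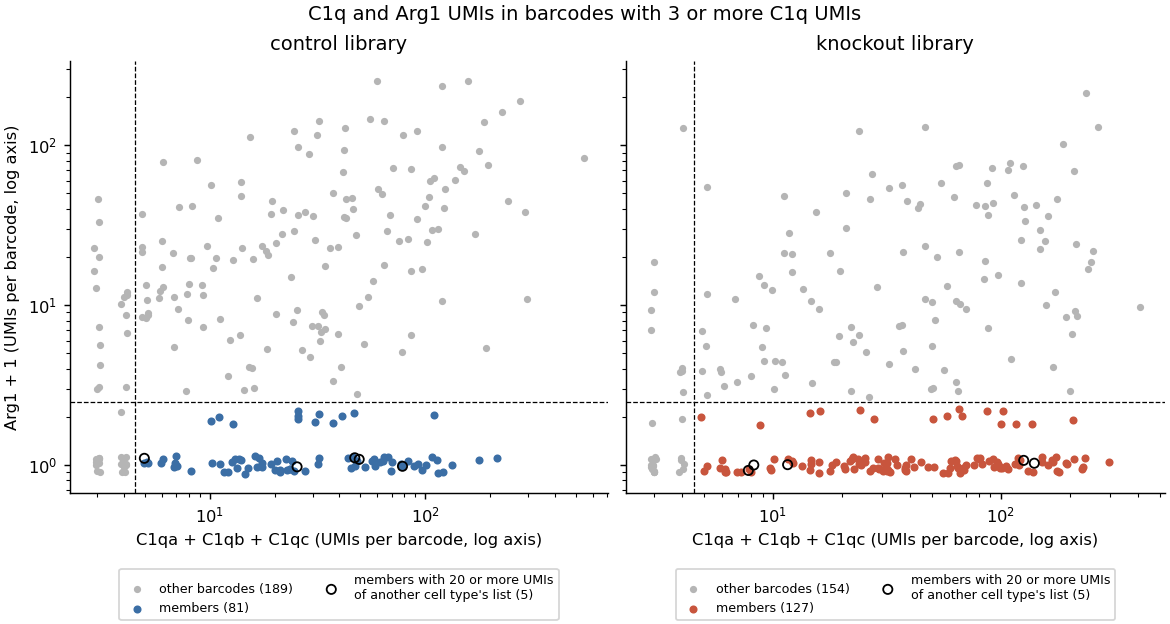
C1qa, C1qb and C1qc UMIs (horizontal, log axis) against Arg1 UMIs plus 1 (vertical, log axis) in barcodes with 3 or more C1q UMIs, for each library. Coloured points are the 86 control and 132 knockout members, rings mark members with 20 or more UMIs of another cell type's markers, and dashed lines are the limits of the rule. Most members lie at 0 Arg1 UMIs, where the rule allows 0 or 1.

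Members made up 0.737% of kept control barcodes (0.590 to 0.910) and 1.22% of kept knockout barcodes (1.02 to 1.45). The knockout share was 1.66 times the control share (1.25 to 2.20). Within C1q barcodes of any Arg1 level, members were 36.4% of control barcodes (30.3 to 42.9) and 51.6% of knockout barcodes (45.3 to 57.8). That ratio was 1.41 (1.07 to 1.88). Against barcodes with a UMI of Ptprc, which encodes the leukocyte protein CD45, the order turned. There members were 72 of 1181 control barcodes (6.10%) and 118 of 3713 knockout barcodes (3.18%), a ratio of 0.521 (0.386 to 0.709). The denominator therefore sets whether the members were the larger share in the knockout library. A rule set on UMI counts also moves with depth. Control members had a median of 4257.5 UMIs (1082 to 28381) and knockout members one of 5304.5 (1093 to 17812), and median mitochondrial shares of 3.19% and 1.45%.

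Kept barcodes shared between the libraries numbered 38, and 0 barcodes were members in both libraries. Markers of other cell types were checked in the members of both libraries. In the control library, 4 barcodes held 707, 1251, 606 and 668 UMIs of 8 fibroblast markers together with 5 to 81 C1q UMIs. The fibroblast markers thus summed to 6965 UMIs per 1000000 (CPM) in control members and 63.1 CPM in knockout members. Another control member and 5 knockout members held 20 or more UMIs of dendritic cell, neutrophil, B cell or acinar markers. These 10 mixed barcodes carried 19.8% of the control members' UMIs and 5.1% of the knockout members'. Without them the fibroblast markers stood at 111 and 63.7 CPM, so many list medians and some gene values below are also given without mixed barcodes. A value given only once includes the mixed barcodes and may move without them. Leaving them out raised the control level of the 12 general macrophage genes from 12824 to 15233 CPM, which lowers the knockout ratio of most macrophage genes. B and plasma cell markers stood at 162 and 449 CPM in the members, against 1750.4 and 7103 CPM over all kept barcodes. Acinar markers stood at 27.6 and 246 CPM, or 15.9 and 100.5 CPM without mixed barcodes, with 6 of 8 genes at 0 in the control members. T and NK cell markers outside the rule stood at 17.0 and 22.8 CPM, with 5 of 11 genes at 0 in each library. Neutrophil markers stood at 138 and 152 CPM and tumour epithelial markers at 183 and 53.7 CPM, below the 851 and 316 CPM and the 2793 and 2163 CPM of all kept barcodes. Dendritic cell markers stood higher in members, at 153 and 172 CPM, than in all kept barcodes (31.7 and 76.0 CPM) and in Arg1 barcodes (43.2 and 31.4 CPM). Endothelial markers also stood above all kept barcodes, at 104 and 80.6 CPM against 29.5 and 35.9 CPM. Their part in the results was not tested.

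General macrophage genes were found in the members as a group. Of 12 general macrophage genes, such as Adgre1, Cd68 and Lyz2, none was at 0 in either library, and each control member had at least 5 of their UMIs and each knockout member at least 6. Together they made 12824 CPM of control and 14002 CPM of knockout members, against 358 and 541 CPM over all kept barcodes. None of these 12 genes was used by the rule. Such low counts do not settle the label of each single member. A mixed control barcode held 11 of these UMIs beside 606 fibroblast marker UMIs, and dendritic cell markers stood higher in members than in Arg1 barcodes. The 4 naming markers C1qa, Apoe, Ms4a7 and Csf1r, of which the rule used C1qa, summed to 10774 and 19563 CPM in the members, against 254 and 422 CPM over all kept barcodes.

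Porcn itself was at the limit of detection. Control members held 3 Porcn UMIs (6.38 CPM, exact Poisson interval 1.32 to 18.6). Knockout members held 0, where the floor of 3 counts corresponds to 4.03 CPM. Arg1 barcodes held 2 and 0. With such counts a deletion could not be read from the members, and 3′ reads may lie outside the deleted part. All kept barcodes together held 1238 control UMIs of Porcn (7.22 CPM) and 673 knockout UMIs (4.95 CPM). The mix of cell types differed between the libraries, with a Ptprc UMI in 1181 of 11664 control and 3713 of 10808 knockout barcodes. Its part in the Porcn difference was not tested.

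The first question was how members of the knockout library differed from members of the control library. UMIs were summed over the members of each library, and genes with at least 50 UMIs over both libraries were read. Of 3853 genes read, 58 were at least 2-fold higher in knockout members (1.51%) and 154 at least 2-fold lower (4.0%). Without the mixed barcodes, 3419 genes were read, with 45 at least 2-fold higher (1.32%) and 53 at least 2-fold lower (1.55%). The larger number of lower genes thus rested on the mixed barcodes. The median log2 ratio over all genes read was -0.01, and 48.4% of genes were above 0. Over the 859 genes with at least 200 UMIs the median was 0.11. Centring on that value gave 37 genes higher and 192 lower. In Arg1 barcodes, 5042 genes were read, with 89 at least 2-fold higher in the knockout library (1.77%) and 51 at least 2-fold lower (1.01%).

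Among the naming markers Apoe differed most. Apoe encodes apolipoprotein E, a lipid carrier made in quantity by tissue macrophages. It stood at 6553 CPM in control members (6323 to 6788) and 13371 CPM in knockout members, a log2 ratio of 1.03 (0.97 to 1.09). At least 1 Apoe UMI was present in 72 of 86 control members and 121 of 132 knockout members. The median control member held 43.1 Apoe UMIs per 10000 and the median knockout member 80.2, so the higher level was not that of a few barcodes. The log2 ratio was 0.78 without mixed barcodes, 0.63 with each member thinned to 2000 UMIs, and 0.67 in Arg1 barcodes. C1qa, which the rule selected on, stood at 3133 and 4716 CPM. Csf1r, the receptor for the macrophage growth factors CSF1 and IL-34, stood at 259 and 399 CPM, a log2 ratio of 0.61 (0.31 to 0.94), or 0.38 without mixed barcodes. Ms4a7, a membrane protein of mature macrophages, stood at 829 and 1077 CPM, a log2 ratio of 0.37 (0.20 to 0.56), or 0.20 without them. The 4 markers had a median log2 ratio of 0.60, or 0.38 without mixed barcodes, and each was higher in knockout members both ways.

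Genes of MHC class II antigen presentation stood higher in knockout members as a group. All 7 of the 10 listed genes that could be read were higher, none of them by 2-fold, with a median log2 ratio of 0.63. H2-Aa, the alpha chain of the I-A molecule, stood at 5142 CPM in control and 7953 CPM in knockout members, a log2 ratio of 0.63 (0.56 to 0.70). Its partner chain H2-Ab1 stood at 4177 and 6501 CPM, a log2 ratio of 0.64. H2-Eb1, the beta chain of I-E, stood at 5099.9 and 7841 CPM, a log2 ratio of 0.62. These chains thus differed by nearly the same ratio. Cd74, the invariant chain that guides class II molecules to the endosome, had the largest log2 ratio of the list at 0.80 (0.74 to 0.85), from 8707 and 15124 CPM. H2-DMa, part of the peptide exchanger, stood at 427 and 725 CPM, a log2 ratio of 0.76. Ciita, the transcriptional coactivator of class II genes, stood at 249 and 286 CPM, and its interval included 0 (0.20, -0.13 to 0.54). Without mixed barcodes the list median was 0.39 with 6 of 7 genes higher, and as a mean over members it was 0.34. As a mean over members the log2 ratio was 0.40 for H2-Aa and 0.52 for Cd74, both below their counting intervals. The median control member held 229 class II UMIs per 10000 and the median knockout member 345. Arg1 barcodes showed the opposite order, with medians of 161 and 143 and a list median of -0.17. Members stood above Arg1 barcodes for all 7 genes in both libraries, with median log2 ratios of 0.30 (control) and 1.08 (knockout). These ratios include the mixed barcodes, which weigh more on the control members. Without mixed barcodes the median control and knockout members held 238 and 349 class II UMIs per 10000, against 162 and 150 in Arg1 barcodes.

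**Figure D2:**
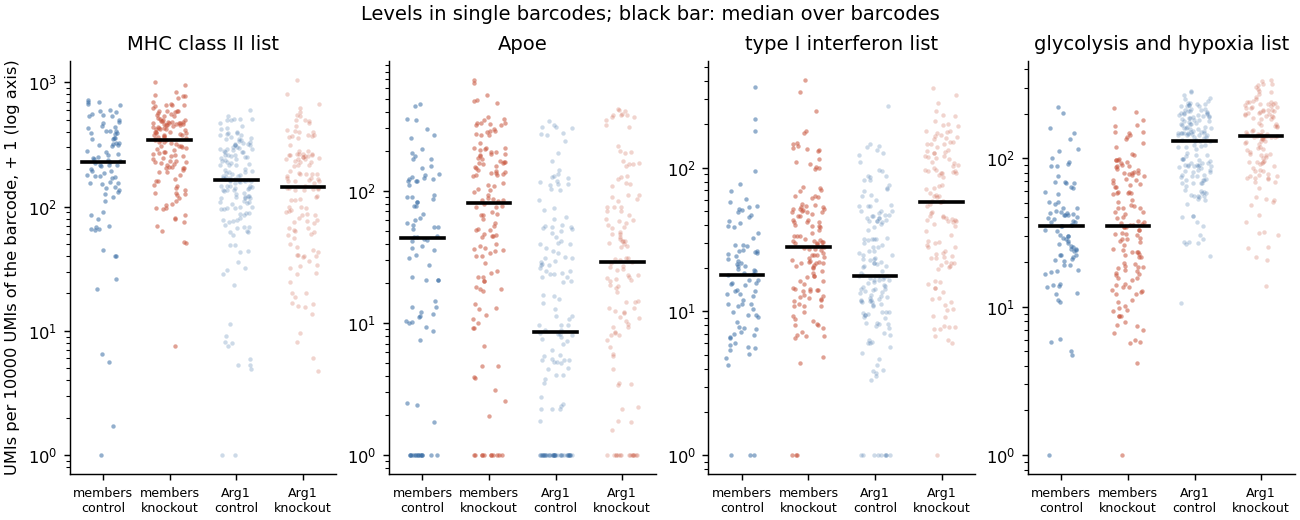
UMIs per 10000 UMIs of the barcode, plus 1 (log axis), for single barcodes of the members and of the Arg1 population in each library, with the black bar at the median over barcodes. For MHC class II genes the medians are 229 and 345 in control and knockout members and 161 and 143 in Arg1 barcodes, while glycolysis and hypoxia genes stand at 33.8 and 34.1 against 130.2 and 139.7.

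Interferon-induced genes were mostly higher in knockout members. Of 33 genes of the type I interferon list, 21 could be read, 18 of them were higher and 4 at least 2-fold higher, with a median log2 ratio of 0.38. The median was 0.51 without mixed barcodes, with 20 of 21 genes higher. The largest ratio was that of Oasl1, a relative of the oligoadenylate synthetases, at 21.3 CPM in control members (10.2 to 39.1) and 126 CPM in knockout members (102 to 154), a log2 ratio of 2.45 (1.63 to 3.68). Its 94 knockout UMIs came from 31 members and its 10 control UMIs from 7. Ifit1, which binds foreign RNA ends, stood at 21.3 and 72.5 CPM, a log2 ratio of 1.66 (0.78 to 2.91). Both levels lay under the 200 and 319 CPM of all kept barcodes, and the part of free RNA in them was not tested. Rsad2, the antiviral enzyme viperin, stood at 55.3 and 173 CPM, a log2 ratio of 1.60, with 53.5% of its knockout UMIs in 1 member. Ifi44 stood at 36.2 and 106 CPM, a log2 ratio of 1.49 (0.78 to 2.40), with UMIs in 7 control and 47 knockout members. Irf7, the transcription factor that amplifies type I interferon, stood at 93.6 and 152 CPM, a log2 ratio of 0.68 (0.18 to 1.23). Isg15, a ubiquitin-like modifier, stood at 164 and 269 CPM, a log2 ratio of 0.70, below the 309.5 and 356 CPM of all kept barcodes. Ifit2, Zbp1 and Ifi211 had log2 ratios of -0.11, -0.21 and -0.08. Arg1 barcodes showed the same order, with all 21 genes read there higher in the knockout library and a median log2 ratio of 1.25. Median levels were 17.0 and 27.2 UMIs per 10000 in control and knockout members and 16.7 and 56.9 in Arg1 barcodes.

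Interferon gamma genes gave a smaller shift, with 14 of 20 genes read higher and a median log2 ratio of 0.25, or 0.08 without mixed barcodes and 0.05 as a mean over members. Gbp2b, an interferon-induced GTPase, had a log2 ratio of 0.72. That of the transcription factor Irf1 was 0.62, or 0.32 as a mean over members. Cd274, which encodes the T cell inhibitory ligand PD-L1, stood at 211 and 312 CPM, a log2 ratio of 0.56, or 0.27 without mixed barcodes and 0.04 as a mean over members. After each barcode was thinned to 2000 UMIs, which left out 8 members per library, a Cd274 UMI was present in 29.5% of control members (19.7 to 40.9) and 33.1% of knockout members (24.9 to 42.1). In keratin-rich barcodes, which held 20 or more keratin UMIs and can express such genes themselves, that share was 8.20% and 12%. MHC class I genes had a median of 0.24, with 14 of 18 higher, or 0.11 without mixed barcodes and 0.06 after thinning. These class I genes include near-identical copies whose reads are hard to separate, so single values are uncertain. B2m, the shared light chain, had a log2 ratio of 0.12.

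Chemokines that attract T cells were higher in knockout members for all 4 genes read of 7, with a median log2 ratio of 0.88, or 0.75 without mixed barcodes. Cxcl9, a ligand of the T cell receptor CXCR3 that is induced by interferon gamma, stood at 1089 CPM in control members (997 to 1187) and 2208 CPM in knockout members, a log2 ratio of 1.02 (0.88 to 1.17). The number of producing members did not differ to the same degree. A Cxcl9 UMI was present in 41 of 86 control and 60 of 132 knockout members, and after thinning in 41.0% (30.0 to 52.7) and 41.1% (32.4 to 50.3). The 5 highest members held 55.9% of the control and 46.8% of the knockout Cxcl9 UMIs. As a mean over members the log2 ratio was 0.76. Of keratin-rich barcodes 8.62% and 12.8% held a Cxcl9 UMI, and in Arg1 barcodes 11.5% and 17.8%. Cxcl10, another CXCR3 ligand, stood at 242 and 420.3 CPM, a log2 ratio of 0.79 that became 0.11 as a mean over members. Ccl5, a chemokine of T cells and macrophages, stood at 210.6 and 414 CPM, a log2 ratio of 0.96 (0.64 to 1.32), or 0.39 as a mean over members. Cxcl16, a ligand of CXCR6, stood at 323 and 415 CPM, a log2 ratio of 0.36 that was 0.04 as a mean over members. Without the top barcode of each library the log2 ratios were 0.99 for Cxcl9, 0.99 for Cxcl10, 1.22 for Ccl5 and 0.36 for Cxcl16, so the sums did not rest on 1 barcode, while the means over members were smaller. The list median was 0.25 as a mean over members and 0.33 with each member thinned to 2000 UMIs, and in Arg1 barcodes it was 1.12.

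Sequence context of the groups above was read from RefSeq promoters of mouse build GRCm38.p6, in the 250 bases before each gene's start. The interferon-stimulated response element was searched on both strands as GAAA, any 2 bases and GAAA. It was found in 14 of 24 type I interferon genes with a window (58.3%) and in 936 of 27025 genes overall (3.46%). The Y box of class II promoters, searched as CTGATTGG on both strands, was found in 3 of 7 class II genes with a window and in 4.43% of all genes. Windows of Ifit1 (chr19:34640639-34640888, plus strand), Rsad2 (chr12:26456453-26456702, minus strand), H2-Aa (chr17:34287824-34288073, minus strand) and H2-Eb1 (chr17:34305617-34305866, plus strand) are shown since they carry these matches in genes with the values above. Each is written 5′ to 3′ on the gene's strand, and capitals mark the match, which reads TTTC, 2 bases and TTTC where it lies on the opposite strand.
Ifit1: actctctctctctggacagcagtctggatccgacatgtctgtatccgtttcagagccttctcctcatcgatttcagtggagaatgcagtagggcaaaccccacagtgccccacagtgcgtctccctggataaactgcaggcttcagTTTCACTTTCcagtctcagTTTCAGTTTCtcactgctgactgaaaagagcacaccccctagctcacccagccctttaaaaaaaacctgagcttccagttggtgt
Rsad2: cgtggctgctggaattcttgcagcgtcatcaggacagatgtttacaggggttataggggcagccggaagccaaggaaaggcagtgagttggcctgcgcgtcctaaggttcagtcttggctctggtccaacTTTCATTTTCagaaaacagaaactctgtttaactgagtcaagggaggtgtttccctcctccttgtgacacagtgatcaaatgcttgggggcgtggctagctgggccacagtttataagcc
H2-Aa: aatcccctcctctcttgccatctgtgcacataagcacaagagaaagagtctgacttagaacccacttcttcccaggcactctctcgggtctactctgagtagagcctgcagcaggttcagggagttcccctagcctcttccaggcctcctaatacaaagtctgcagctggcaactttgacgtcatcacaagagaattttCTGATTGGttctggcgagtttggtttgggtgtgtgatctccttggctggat
H2-Eb1: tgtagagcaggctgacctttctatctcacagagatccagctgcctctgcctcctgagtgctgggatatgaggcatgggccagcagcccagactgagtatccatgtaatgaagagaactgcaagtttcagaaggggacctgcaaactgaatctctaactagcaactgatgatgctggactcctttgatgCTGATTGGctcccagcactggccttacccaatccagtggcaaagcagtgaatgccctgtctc
Ifit1 held 2 matches, at 104 and 85 bases before the start, and Rsad2 held 1, at 120 bases. The Y box lay 51 bases before the start of H2-Aa and 62 bases before that of H2-Eb1. No match was found in the window of Oasl1, which had the largest ratio of the list. A match describes letters and not binding.

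Genes of resident-type tissue macrophages were mostly higher, with 9 of 12 genes read of 18, 1 at least 2-fold higher and 2 at least 2-fold lower. Their median log2 ratio was 0.44, or 0.28 without mixed barcodes, against -0.57 in Arg1 barcodes. Selenop, a secreted selenium carrier, stood at 595 and 989.7 CPM, a log2 ratio of 0.73 (0.53 to 0.94). F13a1, the coagulation factor XIII subunit made by macrophages and monocytes, stood at 138 and 324 CPM, a log2 ratio of 1.21 (0.83 to 1.65). Mrc1, the mannose receptor, stood at 502 and 674 CPM, a log2 ratio of 0.42, or 0.16 without mixed barcodes. Its share of thinned members was 51.3% (39.7 to 62.8) in the control and 48.4% (39.3 to 57.5) in the knockout library, so its carriers did not differ beyond counting error. The resident markers Folr2, Lyve1 and Cd163 were rare. Folr2 was found in 7.69% and 7.26% of thinned members, and Lyve1 in 1.28% and 2.42%, while Cd163 was found in 0 of them. A floor of 3 counts allows shares of members with a Cd163 UMI of up to 3.85% and 2.42% at this depth, and without thinning 0.758% of knockout members held one. Pf4, a chemokine of platelets and some tissue macrophages, stood at 751 and 171 CPM, a log2 ratio of -2.13. A single control member held 264 Pf4 UMIs, and without the top barcode of each library the log2 ratio was -0.37. Gas6, a bridge between dying cells and their receptors, had a log2 ratio of -1.02, and 0.47 without mixed barcodes.

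Genes of monocytes were higher for 6 of 8 genes read of 14, with a median log2 ratio of 0.72, or 0.47 without mixed barcodes and 0.34 over genes with at least 20 UMIs. Ly6c2, which marks inflammatory monocytes, had 7 UMIs in control members (14.9 CPM) and 58 in knockout members (77.9 CPM), a log2 ratio of 2.22 (1.25 to 3.76). It was found in 2.56% (0.312 to 8.96) of thinned control members and 11.3% (6.31 to 18.2) of thinned knockout members. Thinned to 1000 UMIs in place of 2000, the shares were 3.49% (0.725 to 9.86) and 4.55% (1.69 to 9.63), so the difference in carriers was not detectable at that depth. Keratin-rich barcodes gave 0.0279% and 0.198% at 2000 UMIs. Arg1 barcodes gave 0.719% (0.0182 to 3.94) in the control and 13.6% (7.95 to 21.1) in the knockout library at 2000 UMIs. At 1000 UMIs they gave 0.667% and 12.1%, so the Ly6c2 difference was not particular to the members. Ccr2, the receptor that takes monocytes out of the marrow, stood at 147 and 229.6 CPM, a log2 ratio of 0.63 that was 0.39 without mixed barcodes and 0.98 without the top barcodes. It was found in 14.1% and 25.8% of thinned members, with intervals that overlap, and in 17.3% and 17.8% of thinned Arg1 barcodes. Plac8, a small cysteine-rich protein, stood at 196 and 419 CPM, a log2 ratio of 1.09 (0.76 to 1.45), below the 871 and 899.6 CPM of all kept barcodes. The list also held genes in the other direction. Fn1, which encodes fibronectin and is a matrix gene of fibroblasts too, stood at 1310.1 and 96.7 CPM, a log2 ratio of -3.74 that was -1.93 without mixed barcodes. S100a4, a calcium-binding protein of many motile cells, stood at 593 and 227 CPM, a log2 ratio of -1.38, or -0.56 as a mean over members. Summed over all 14 genes the monocyte list stood at 2684 and 1579 CPM, or 1842 and 1561 CPM without mixed barcodes. In the knockout members 18 of 32 barcodes with Ccr2 also held Mrc1 after thinning, against 4 of 11 in the control members. Among all thinned members Mrc1 was found in 60 of 124 knockout and 40 of 78 control barcodes. A link between the 2 genes was not tested.

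Lipid-associated macrophage genes stood the other way. Of 20 genes 15 could be read, and 12 of these were lower in knockout members, 3 of them by at least 2-fold. The median log2 ratio was -0.30, and -0.54 without mixed barcodes. It turned to 0.04, over 10 genes, with each member thinned to 2000 UMIs, so the direction of the list did not hold there. Cd9, a tetraspanin, stood at 236 CPM in control members (194 to 284) and 67.1 CPM in knockout members (49.8 to 88.5), a log2 ratio of -1.80 (-2.33 to -1.32). All kept barcodes held more Cd9 than the members, at 1122 and 906 CPM. Cd36, a scavenger receptor for oxidised lipids, stood at 136 and 30.9 CPM, a log2 ratio of -2.10 that was -1.40 without the top barcode of each library. Lgals3, which encodes galectin-3, stood at 1608 and 1242 CPM, a log2 ratio of -0.37 that was -0.12 without the top barcodes. It was found in most members, with UMIs in 67 of 86 and 104 of 132, unlike the next gene. Gpnmb, a lysosomal membrane glycoprotein, stood at 145 and 18.8 CPM, a log2 ratio of -2.86. Its UMIs came from 5 control and 7 knockout members, and without the top barcode of each library the log2 ratio was -1.04. Spp1, which encodes osteopontin, stood at 425 and 279 CPM, a log2 ratio of -0.61 that was 0.60 as a mean over members. A single barcode held 91 of its 200 control UMIs and another 145 of its 208 knockout UMIs. Without the top barcode of each library the log2 ratio was -1.44. Spp1 was found in 23.1% and 12.9% of thinned members and in 81.0% and 67.1% of keratin-rich barcodes. These barcodes thus held a Spp1 UMI more often than the members did. Trem2, the lipid receptor that names this state, stood at 153 and 148 CPM, a log2 ratio of -0.06. A single barcode held 20 of the 72 control Trem2 UMIs. The Trem2 log2 ratio was 0.34 without the top barcode of each library and 0.22 as a mean over members. It was found in 16.7% (9.18 to 26.8) and 29.8% (22 to 38.7) of thinned members. Against Arg1 barcodes, 13 of 16 genes of the list were lower in the members in both libraries.

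**Figure D3:**
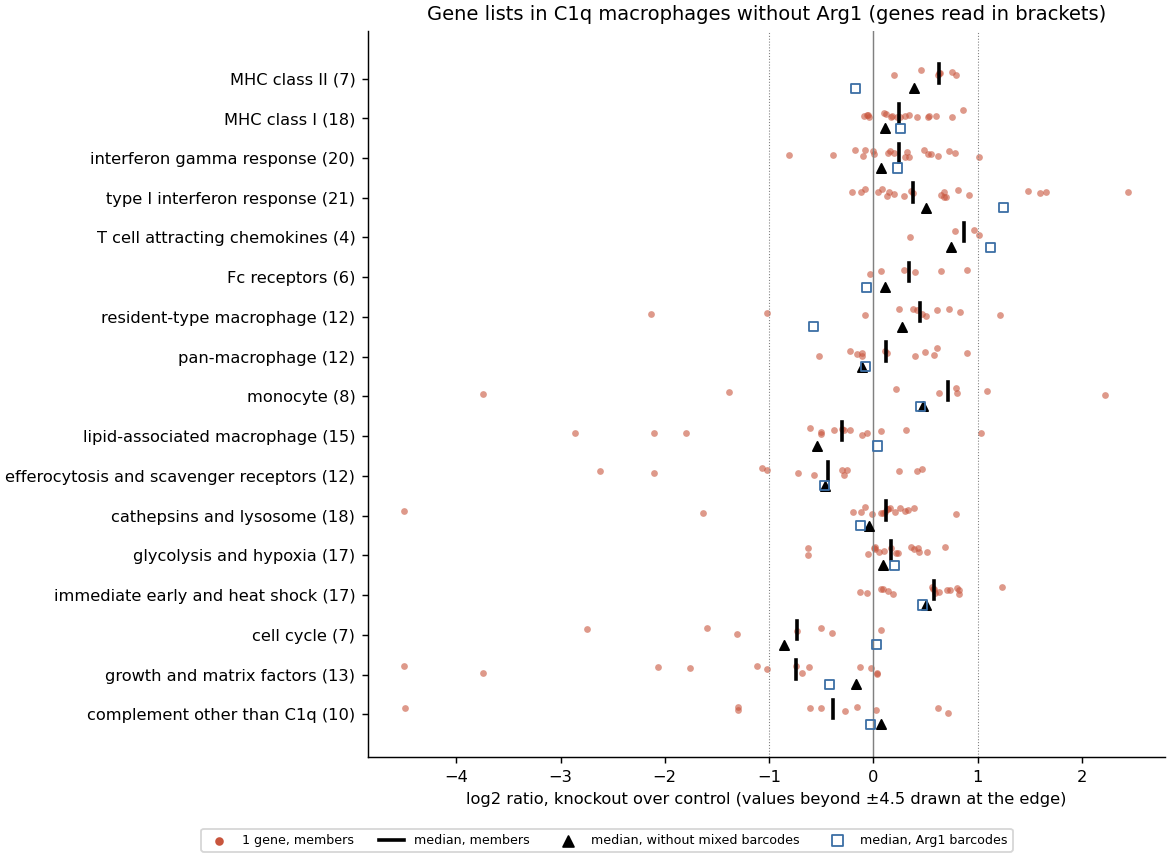
Log2 ratios of knockout over control members (horizontal) for genes of the lists (rows, with the number of genes read in brackets). Points are genes, black lines list medians, triangles medians without mixed barcodes and open squares medians in Arg1 barcodes. MHC class II has its median at 0.63 in members and -0.17 in Arg1 barcodes, and the type I interferon list at 0.38 and 1.25.

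Receptors for antibody and for dying cells went different ways. Of 6 Fc receptor genes 5 were higher, with a median log2 ratio of 0.34, or 0.12 without mixed barcodes. Fcgr1, the high-affinity receptor for IgG, stood at 166 and 313 CPM, a log2 ratio of 0.90 that was 0.68 without mixed barcodes. Fcer1g, the signalling chain of several Fc receptors, stood at 1750.3 and 2739 CPM, a log2 ratio of 0.65. Of 12 efferocytosis and scavenger receptor genes 9 were lower, with a median of -0.44, or -0.15 after thinning. In Arg1 barcodes the median was similar at -0.47. Lrp1, an endocytic receptor for lipoproteins and dying cells, stood at 262 and 125 CPM, a log2 ratio of -1.06, or -0.45 as a mean over members. Mertk, the receptor tyrosine kinase for dying cells, had a log2 ratio of 0.25. Cathepsin and lysosome genes had a median of 0.12, and -0.05 without mixed barcodes. Ctsl, a lysosomal protease, stood at 1053 and 339.7 CPM, a log2 ratio of -1.63 that was -0.95 without the top barcode of each library. Complement genes other than C1q turned with the mixed barcodes, from a median of -0.38 to 0.08. C3, the central complement protein, had a log2 ratio of -1.30 with and 0.68 without them.

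Matrix and growth factor genes, cell cycle genes and stress genes were read in the same way. Of 13 matrix and growth factor genes 11 were lower, with a median log2 ratio of -0.74, or -0.17 without mixed barcodes. It was -1.58 after thinning and -2.43 over genes with at least 200 UMIs, both with mixed barcodes. Mmp12, the macrophage elastase, stood at 189 and 44.3 CPM, a log2 ratio of -2.07 (-2.72 to -1.50). Mmp14, a membrane-bound collagenase, stood at 317 and 146 CPM, a log2 ratio of -1.11, and -0.71 without mixed barcodes. Of 22 cell cycle genes 7 could be read and 6 were lower, with a median of -0.73, or -0.86 without mixed barcodes and -0.22 after thinning, against 0.03 in Arg1 barcodes. Top2a, a topoisomerase of dividing cells, had 54 UMIs in control and 12 in knockout members, a log2 ratio of -2.74 (-3.87 to -1.91). Mki67 had 43 and 22 UMIs, and was found in 7.69% and 4.84% of thinned members, a difference within the intervals (2.88 to 16 and 1.80 to 10.2) and near the 3.67% and 3.78% of keratin-rich barcodes. Of 17 immediate early and heat shock genes 15 were higher, with a median of 0.59 in members, 0.25 with each member thinned to 2000 UMIs, and 0.47 in Arg1 barcodes. Hspa1b, an inducible chaperone with a near-identical copy, stood at 238 and 565 CPM, a log2 ratio of 1.24 (0.94 to 1.56) that was 0.59 after thinning. Fos and Jun, which form the AP-1 transcription factor, had log2 ratios of 0.74 and 0.59. Such genes also respond to tissue digestion, and a share of that in the difference was not tested.

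Genes of the Wnt pathway were mostly too low to read. Of 22 genes of Wnt ligands and secretion only Wls, the carrier of lipidated Wnt proteins, reached 50 UMIs. It stood at 119 and 125 CPM, a log2 ratio of 0.06. Of 25 Wnt receptors and targets 5 could be read and 4 were lower, with a median log2 ratio of -0.53, or -0.27 as a mean over members. Cd44, a hyaluronan receptor and Wnt target, stood at 315 and 167 CPM, a log2 ratio of -0.92, or -0.53 without the top barcode of each library. In Arg1 barcodes all 5 were lower, with a median of -0.59. Tgfbr1, a kinase receptor for TGF-beta on the survival list, stood at 408 and 209 CPM, a log2 ratio of -0.96 (-1.28 to -0.65).

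Smaller lists filled in the rest of the profile. Inflammatory cytokine genes were higher for all 7 read, with a median of 0.26, or 0.09 without mixed barcodes. That direction was not stable, with a median of -0.003 as a mean over members and -0.21, over 3 genes, after thinning. Il12b had 0 control and 50 knockout UMIs, 48 of them in 1 member. Alternative activation genes had a median of 0.24, or 0.04 without mixed barcodes. Among them Clec10a, a galactose-type lectin of macrophages and dendritic cells, had 6 UMIs in 6 control members (12.8 CPM) and 87 UMIs in 28 knockout members (117 CPM). Its log2 ratio was 2.99 (2.01 to 4.68) in members and -1.39 in Arg1 barcodes. Of 9 monocyte chemokine genes read, 5 were higher and 4 lower, with a median of 0.49 that was 0.21 after thinning and 0.09 over genes with at least 200 UMIs. Ccl8 stood at 2176 and 3885 CPM (log2 ratio 0.84, or 0.42 without mixed barcodes) and Ccl4 at 374 and 841 CPM. Besides Pf4, the lower genes were Ccl6, Ccl9 and Ccl12, with log2 ratios of -0.56, -0.65 and -0.31. The median of macrophage transcription factors was 0.28 and that of iron genes 0.22, or 0.12 and 0.01 without mixed barcodes. General macrophage genes had a median of 0.12, and -0.11 without mixed barcodes.

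A rule of size and spread named 12 genes in each direction among 994 genes that were spread over members and lay above the level of all kept barcodes. Slamf7, a receptor of activated myeloid and lymphoid cells, stood at 42.5 CPM in control members (26 to 65.7) and 124 CPM in knockout members (99.6 to 152), a log2 ratio of 1.48 (0.83 to 2.31). Cdkn1a, the cell cycle inhibitor p21, stood at 48.9 and 141 CPM, a log2 ratio of 1.48 (0.87 to 2.25). Without mixed barcodes these log2 ratios were 1.30 and 1.45. Arhgdib, a GDP dissociation inhibitor of blood cells, stood at 202 and 412 CPM, a log2 ratio of 1.02, against -0.40 in Arg1 barcodes. Cd48, a ligand of CD244, stood at 68.1 and 139.7 CPM, a log2 ratio of 1.01, and Lmo2, a transcriptional adaptor of blood cells, at 51.0 and 105 CPM, a log2 ratio of 1.0. Hmox2, the constitutive haem oxygenase, stood at 59.6 and 129 CPM, and Sdhb, a subunit of succinate dehydrogenase, at 68.1 and 137 CPM. Ier5, Lrrc25, Hspa1b and Apoe were also named. Ighm, the immunoglobulin heavy chain of B cells, was named at 76.6 and 179.9 CPM, a log2 ratio of 1.2 that was 0.79 without mixed barcodes, beside the 87.9 and 169.7 CPM of all kept barcodes. The B cell markers stood at 162 and 449 CPM in the members, and their part in it was not tested.

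The 12 named genes in the other direction had log2 ratios of smaller size, among genes that passed the filters in the control library. Genes with larger decreases given above, such as Mmp12 and Ctsl, did not pass them, so the 2 directions cannot be compared by size. Serinc3, a membrane protein of the serine incorporator family, stood at 336 CPM in control members (286 to 393) and 159.8 CPM in knockout members, a log2 ratio of -1.07 (-1.43 to -0.72). It was also lower in Arg1 barcodes, at -0.83. Ppp2r5c, a regulatory subunit of protein phosphatase 2A, stood at 170.1 and 81.9 CPM, a log2 ratio of -1.05 (-1.56 to -0.56). Trio, a guanine nucleotide exchange factor, stood at 140.4 and 72.5 CPM, a log2 ratio of -0.95 (-1.50 to -0.41). The others, Pdcd6ip, Cpd, Gm17268, Cyth1, Phc2, Taok1, Rpn1, Nipa2 and Atp13a2, had log2 ratios between -0.90 and -0.69. These 9 genes were all lower without mixed barcodes too.

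**Figure D4:**
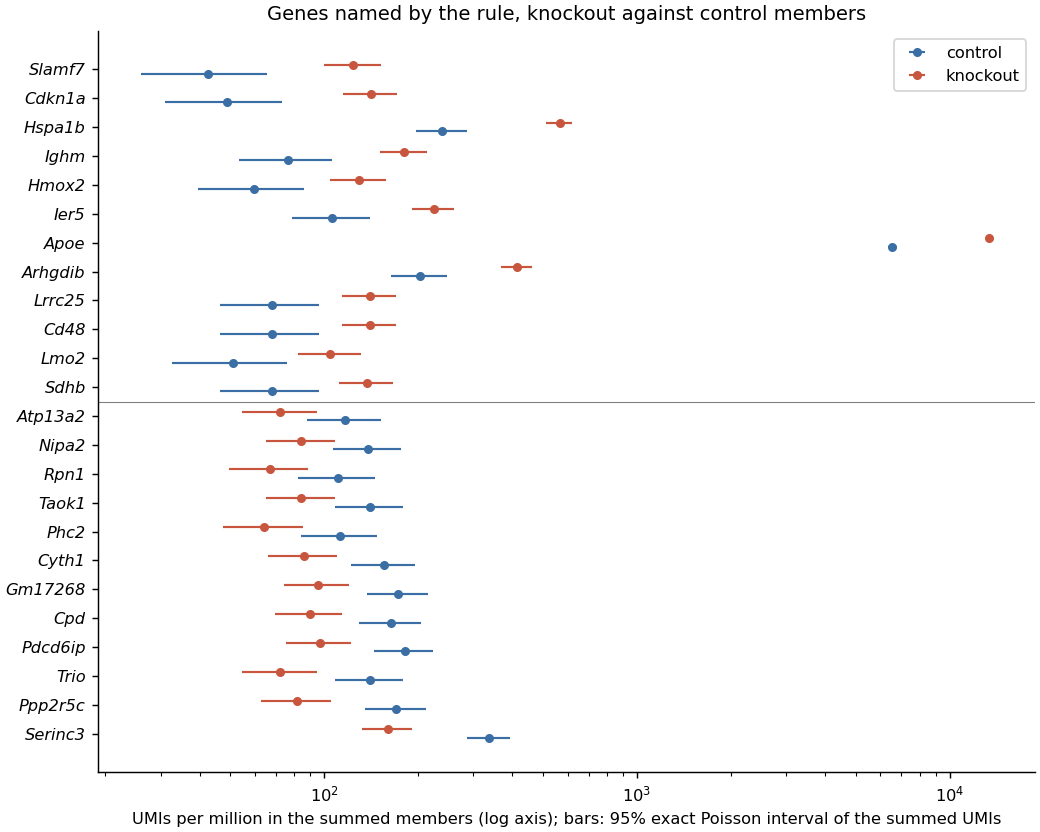
CPM in the summed members (log axis) for the 12 named genes with the highest and the 12 with the lowest knockout over control ratio, with exact Poisson 95% intervals of the summed UMIs. Slamf7 and Cdkn1a lie at 42.5 and 48.9 in control and at 124 and 141 in knockout members, and Serinc3 lies at 336 in control members.

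The second question was what sets the members apart from C1q macrophages that carry Arg1. The rule used Arg1 in this contrast, so the values describe the 2 populations and test nothing. Of 4135 genes read in both libraries, 179 were at least 2-fold higher in members in both (4.33%) and 139 at least 2-fold lower in both (3.36%). Tmem176a, a membrane protein of antigen-presenting cells, stood at 323 and 543 CPM in control and knockout members and 31.5 and 56.3 CPM in Arg1 barcodes, log2 ratios of 3.33 and 3.25. Cx3cr1, the fractalkine receptor of patrolling monocytes and tissue macrophages, stood at 247 and 283 CPM in members and 35.1 and 58.1 CPM in Arg1 barcodes, log2 ratios of 2.79 and 2.27. Pou2f2, a transcription factor of B cells and macrophages, had log2 ratios of 3.07 and 2.03. Hpgds, Clec4a1, Pip4k2a, Clec4a3, Cadm1, Trerf1 and Mbnl1 completed the 10 named genes, with the smaller of their ratios between 1.47 and 1.95. Adgre1, the F4/80 antigen, had log2 ratios of 1.14 and 1.79. It is 1 of the 12 general macrophage genes, which did not go this way as a group. Of them 3 were higher in members in both libraries and 6 lower in both, with median log2 ratios of -0.22 and -0.09. These medians include the mixed barcodes. Without those, the 12 genes rose from 12824 to 15233 CPM in control members, against 16791 CPM in all control Arg1 barcodes. Cxcl9 was higher in members by 2.58 and 2.57 on the log2 scale.

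Genes of glycolysis and hypoxia were lower in members throughout. All 21 were lower in both libraries, 19 of them by at least 2-fold in both, with median log2 ratios of -1.56 in the control and -1.61 in the knockout library. Bnip3, a mitophagy receptor induced by hypoxia, stood at 61.7 and 80.6 CPM in members and 391 and 382 CPM in Arg1 barcodes, log2 ratios of -2.62 and -2.22. Fam162a, another hypoxia-induced mitochondrial protein but not on the list, stood at 113 and 94.0 CPM against 496 and 495 CPM. Vegfa, the vascular growth factor, had log2 ratios of -2.02 and -2.41, and Ldha, lactate dehydrogenase A, -1.35 and -1.41. The median barcode held 33.8 and 34.1 UMIs of the list per 10000 in members and 130.2 and 139.7 in Arg1 barcodes. Between the genotypes the members differed little here, with a list median of 0.17, or 0.09 without mixed barcodes. Also outside the list, Mmp12 stood at 189 and 44.3 CPM in members and 3748 and 2444 CPM in Arg1 barcodes, log2 ratios of -4.29 and -5.74. Chil3, a chitinase-like protein of alternatively activated macrophages, had 1 and 5 UMIs in members and stood at 2249 and 4758 CPM in Arg1 barcodes. Atp6v0d2, AA467197, Hilpda, Bhlhe40, Il7r and Adam8 were named by the same rule, with the larger of their log2 ratios between -3.42 and -2.12. Of these, Atp6v0d2, a subunit of the vacuolar proton pump, had log2 ratios of -3.42 and -4.65.

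The core of the hypoxia response element, searched as ACGTG on both strands, was found in 12 of 19 glycolysis and hypoxia genes with a window (63.2%) and in 4998 of 27025 genes overall (18.5%). RefSeq windows on GRCm38.p6 are shown for Bnip3 (chr7:138909507-138909756, minus strand) and Fam162a (chr16:36071562-36071811, minus strand). Both genes were named for their low ratios, and of them only Bnip3 was on the list. Matches are in capitals, and each window is written 5′ to 3′ on the gene's strand.
Bnip3: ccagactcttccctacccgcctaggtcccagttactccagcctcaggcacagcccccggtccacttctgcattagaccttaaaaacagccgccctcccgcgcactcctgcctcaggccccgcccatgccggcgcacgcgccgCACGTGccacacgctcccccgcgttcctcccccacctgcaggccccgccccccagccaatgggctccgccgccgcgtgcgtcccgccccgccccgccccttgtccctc
Fam162a: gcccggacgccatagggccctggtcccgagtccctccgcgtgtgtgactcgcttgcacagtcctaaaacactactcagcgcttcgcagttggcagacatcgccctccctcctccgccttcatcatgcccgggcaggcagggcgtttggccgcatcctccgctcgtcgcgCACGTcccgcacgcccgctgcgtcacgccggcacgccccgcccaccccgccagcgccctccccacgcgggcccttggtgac
In Bnip3 the 2 matches overlap on opposite strands, 108 and 107 bases before the start. In Fam162a the match lies 81 bases before the start.

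**Figure D5:**
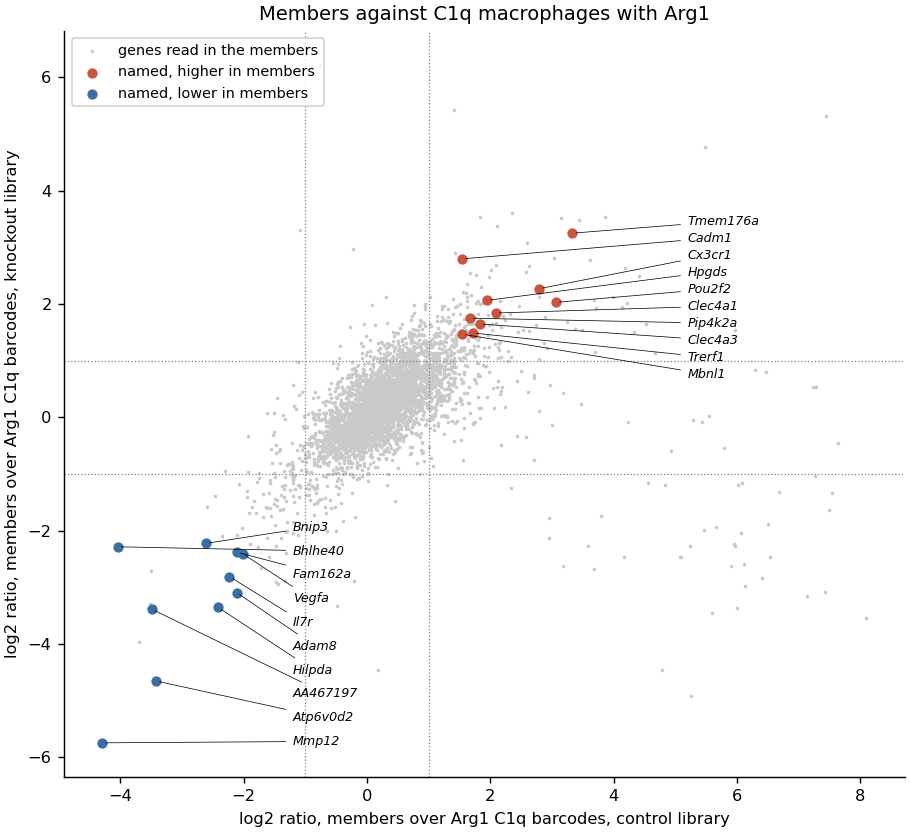
Log2 ratio of members over Arg1 C1q barcodes in the control library (horizontal) and in the knockout library (vertical), 1 point per gene read. Coloured points are the 10 genes named in each direction, among them Tmem176a at 3.33 and 3.25 and Mmp12 at -4.29 and -5.74.

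Members varied in which single genes were detected and in their class II levels. After thinning, Fcgr4, an activating IgG receptor, was found in 41.0% (30.0 to 52.7) of control and 40.3% (31.6 to 49.5) of knockout members, and Ciita in 38.5% and 35.5%. Keratin-rich barcodes gave 0.181% and 0.484% for Fcgr4 and 5.47% and 6.53% for Ciita. Thinned to 1000 UMIs, the members' shares were 16.3% and 24.2% for Fcgr4 and 19.8% and 20.5% for Ciita. Such shares move with depth, so they cannot separate members that express a gene from members that do not. Mrc1 and Cxcl9 were found together in 16 control members, which was 40.0% of the 40 with Mrc1 and 50% of the 32 with Cxcl9. In the knockout library they were found together in 11 members, 18.3% of the 60 with Mrc1 and 21.6% of the 51 with Cxcl9. Trem2 and Spp1 were found together in 4 members of each library. Class II levels ranged from 0 to 720.0 UMIs per 10000 in control members and from 6.56 to 996 in knockout members, so the 2 libraries overlapped over most of their range.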

How the data were processed

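Single cells of orthotopic KPC tumours were profiled with a 10x Genomics 3′ kit, in 1 library of pooled tumours from 5 mice per genotype. The deposited matrices hold raw UMI counts per gene and barcode, without normalisation, per the file headers, which name Cell Ranger 8.0.0. The submitters' processing notes name Cell Ranger 3.1.3 and mm10, and the difference between the 2 versions was not settled. Per the labels' protocols, cells were released at 37 °C in 30 min with DNase I (0.1 mg/mL) and collagenase V (1.5 mg/mL), which can itself induce stress genes, and live cells were enriched. The control matrix held 13766 barcodes and the knockout matrix 12251.

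Members were picked by the rule given in the report, and their UMIs were summed per library and scaled to CPM. Members carried 470201 UMIs in the control and 744667 in the knockout library. Log2 ratios had 1 UMI added to each sum, and genes with at least 50 UMIs over both libraries were read. Intervals are exact (Poisson, Clopper-Pearson, or conditional binomial for a ratio of UMI sums). With 1 library per group no test was run and no p-value is given. The ratio script was tested on simulated data with known folds. Shares of members with a UMI were taken after thinning each barcode to 2000 UMIs. Doublets were not removed. Scrublet (scanpy 1.11.5, rate 0.08) called 148 control and 341 knockout barcodes, 2 and 4 of them members.

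Named genes had at least 100 UMIs and a UMI in at least 10% of members of the higher library. No barcode held over 10% of their UMIs there, and their CPM was at least that of all kept barcodes. Genes of the rule were left out. The 12 highest and 12 lowest ratios were named, and 10 each way for members against Arg1 barcodes, where the filters and direction had to hold in both libraries. Genes of the lists are named with their values besides. The members and the 35 gene lists were chosen with earlier results of these data known. Of the list genes, Clec7a, Mx1, Mx2, Mnda and Cxcl11 were not analysed here. The value of 1 further gene of the interferon lists is not reported here. Mixed barcodes were defined after seeing the data. Promoters came from RefSeq windows on GRCm38.p6. Tools were Python 3.11.15, numpy 2.4.6, pandas 2.3.3, scipy 1.17.1 and matplotlib 3.10.9.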

Additional observations from a re-analysis of the deposited data

Results flagged for a closer look

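Several genes differed between the genotypes in opposite directions in members and in Arg1 barcodes. The value given is the log2 ratio of knockout over control in members minus that in Arg1 barcodes, and with 1 library per group the difference was not tested. It was 4.38 for Clec10a, whose 87 knockout UMIs came from 28 members. It was 4.02 for the B cell chemokine Cxcl13, where 3 control members held 53 UMIs and 14 knockout members held 501, 233 of them in 1 barcode. The value was -8.00 for Col1a1, -10.5 for Col1a2, -9.12 for Col3a1, -10.3 for Dcn, -8.70 for Sparc and -7.23 for C1s1. These are matrix and fibroblast genes, and the fibroblast markers stood at 6965 CPM in control members and 111 CPM once the mixed barcodes were left out. Arg1 barcodes went the other way, with these markers at 85.5 CPM in the control and 464 CPM in the knockout library. There, 1 control and 6 knockout Arg1 barcodes held 20 or more UMIs of another cell type's markers.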

How the results depend on the processing

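The share ratio of members lay between 1.41 and 1.89 under 8 alternatives and turned to 0.521 among barcodes with a Ptprc UMI. The 58 genes at least 2-fold higher in knockout members became 35 with a pseudocount of 5 UMIs, 180 with a minimum of 20 UMIs, 12 with a minimum of 200, 37 after centring and 15 with members thinned to 2000 UMIs. The 154 lower genes became 53 without mixed barcodes, an alternative added after seeing the data. They became 502 and 22 with minimums of 20 and 200 UMIs, 26 after thinning and 100 when only genes above the level of all kept barcodes were read. Against Arg1 barcodes, a minimum of 200 UMIs left 41 of 179 higher and 77 of 139 lower genes, since fewer genes were read. For the other moves the cause was not tested. Of the named genes' values 12 moved beyond their counting interval and 269 did not, and of the list medians 18 moved and 316 did not. Thinning to 1000 UMIs in place of 2000 moved 16 of 28 marker shares. No paired analysis was possible because each genotype had 1 library, and for the same reason no replicate could be left out. Depth limits what can be read: a gene with 50 UMIs over 218 members has wide intervals, and Porcn at 3 and 0 UMIs cannot show the deletion.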

Other observations

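Ddx3y, a Y-linked gene, had 26 UMIs in control and 40 in knockout members, and Xist, which is expressed from the inactive X chromosome, had 0 in both. Apoc2, an apolipoprotein whose gene lies beside Apoe, had 1 UMI in control members and 45 in knockout members, where 28 barcodes held it. It was below the 50 UMIs needed to be read.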
